A study of Rattus norvegicus with 10 samples.

Results

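The regions described here are H3K4me3 peaks of RCS, an established line of rat chondrosarcoma cells, that carried H3K27ac and held no peak of the transcription factors SOX9 and SOX6. A peak of the H3K4me3 list belonged to them if it was narrower than 4000 bp, shared at least 1 bp with an H3K27ac peak and shared none with a SOX9 or SOX6 peak. The regions were thus chosen by their H3K4me3 width and by the presence or absence of H3K27ac, SOX9 and SOX6 peaks. This rule found 11750 of 23116 H3K4me3 peaks, or 50.8% (95% Wilson interval 50.2% to 51.5%). They were set against the 7237 regions that met the same limits of width and acetylation but held a SOX peak. Of these, 3210 held both factors, 2409 held SOX6 only and 1618 held SOX9 only. The remaining H3K4me3 peaks were 3380 narrow ones without H3K27ac and 749 that were 4000 bp or wider.

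Chromatin of RCS cells was immunoprecipitated with antibodies against SOX9, SOX6, H3K27ac, H3K4me1, H3K4me3 and H3K9me3, with 1 library each, and 4 further libraries were inputs made without an antibody. The labels name no treatment or genotype, so all libraries come from the same kind of cells, and all results rest on this 1 tumour line. With 1 library per antibody there was no replicate error and no test between libraries. The intervals given below cover counting error within these libraries only, and neighbouring regions are not independent. A region without a SOX peak is one without a deposited peak, and binding under the lowest score of a list would not be seen.

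H3K4me3 is laid down mainly at active promoters, on the nucleosomes around the start of transcription. H3K4me1 typically borders it there, where the trimethylated form gives way to the monomethylated one, while at enhancers H3K4me1 covers the element itself and H3K4me3 is weak or absent. H3K27ac is added by the coactivators p300 and CBP at active elements of both kinds, and H3K9me3 marks heterochromatin. SOX9 and SOX6 bind together at many enhancers of cartilage genes, including those of genes for cartilage matrix proteins. An annotation of rn5, the genome build of the files, was not used here, and regions are given by position without gene names.

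Regions without SOX peaks had nearly the same median width as those with them over all scores, were narrower within each class of H3K4me3 score, and had a different spread of scores. The median width over all scores was 1649 bp (quartiles 997 and 2254 bp) without and 1662 bp (1027 and 2453 bp) with SOX peaks. The score is the authors' own, on a scale that the sources used here do not give, and a single high value, 3100, was shared by 41.9% of all H3K4me3 peaks. Scores of 3100 or more form the highest class below, and the rest were divided at the median of the list, 1674. By this division the highest class held 49.6% of regions without SOX peaks, 44.3% of those with SOX peaks and 42.5% of all H3K4me3 peaks. The class between held 9.20% and 7.02%, and the lowest class 41.2% and 48.7%, without and with SOX peaks. The difference in the highest class, 5.27 points, was 11.4 points when only the SOX9 list was read, 11.2 with only the SOX6 list and 16.8 with only SOX peaks above their median score. Split by factor, the highest class held 60.3% of regions with SOX9 only and 54.8% with SOX6 only, both above the 49.6% without SOX peaks. It held 28.3% of regions with both factors, which either single list counts as held. Median widths were 1914 bp with SOX9 only, 1846 bp with SOX6 only and 1397 bp with both. Width and score were read by the rule or come from the list it read, so these values are a description. A wider region also has more room to hold a SOX peak.

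**Figure D1:**
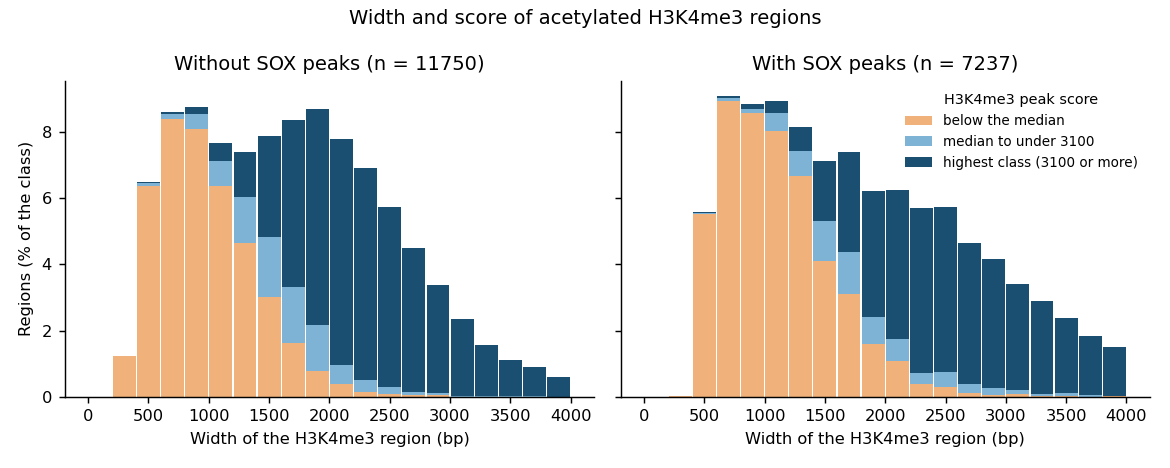
Width of acetylated H3K4me3 regions (x axis, in steps of 200 bp) against the percentage of regions of each class (y axis), for regions without (left) and with SOX peaks (right), stacked by class of H3K4me3 score. In both, low scores fill the narrow regions and the highest class fills the wide ones, and the median widths are 1649 and 1662 bp.

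Narrow regions mostly had low scores and wide regions high ones. Among regions without SOX peaks the median width was 2228 bp in the highest score class, 1588 bp in the class between and 912 bp in the lowest. With SOX peaks these medians were 2502, 1749 and 1023 bp. The small difference over all scores, -13 bp, turned direction in 8 of 13 alternatives, to as much as 226 bp with SOX peaks above their median score. Of those 500 to under 1000 bp wide, 1.40% reached the highest class, and of those 2000 to under 3000 bp wide, 92.9% did. From 1000 bp upwards, regions without SOX peaks reached it more often than those with SOX peaks at equal width. The gap was widest at 1500 to under 2000 bp, with 63.8% against 46.3%, and smallest at 3000 to under 4000 bp, with 98.4% against 96.2%. At 500 to under 1000 bp the shares were 1.40% and 1.15%, and under 500 bp no region of either class reached it. The direction of the difference in score depended on the peaks kept. Among H3K4me3 peaks above their median score, the highest class held 84.3% of regions without and 86.3% of those with SOX peaks.

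Of all acetylated regions under 4000 bp, 61.9% (61.2% to 62.6%) held no SOX peak, and this share was lowest among the widest. It was 60.8% at 500 to under 1000 bp, 66.6% at 1500 to under 2000 bp and 46.8% at 3000 to under 4000 bp. Under 500 bp it was 88.5% (85.1% to 91.2%), over 426 regions. A wider region has more room to overlap a SOX peak, so these shares by width are a description. By score, 64.5% of the highest, 68.0% of the middle and 57.9% of the lowest class held no SOX peak.

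H3K4me1, which the rule did not read, bordered regions without SOX peaks less often than regions with them. A flank, meaning the 1000 bp next to an edge, was counted as carrying H3K4me1 where a peak of that mark reached into it. Both flanks carried H3K4me1 at 43.7% of regions without SOX peaks and 67.6% of those with them, a difference of -23.9 percentage points (95% Newcombe interval -25.3 to -22.5). Over all H3K4me3 peaks the share was 48.3%. These levels depend on what counts as marked: with at least 0.5 of each flank covered they were 12.8% and 32.2%, and with H3K4me1 peaks above their median score 24.3% and 49.4%. Neither flank carried it at 19.8% of regions without and 7.13% of regions with SOX peaks, a difference of 12.6 points (11.7 to 13.6), against 20.6% of all H3K4me3 peaks. The share with both flanks was lower without SOX peaks on 21 of 21 chromosomes, by -11.7 to -28.4 points.

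Regions with only 1 of the factors lay between. Both flanks carried H3K4me1 at 59.3% (56.9% to 61.6%) of regions with SOX9 only and 57.8% (55.8% to 59.7%) of those with SOX6 only, and at 79.2% (77.7% to 80.5%) of regions with both. Narrow H3K4me3 peaks without H3K27ac were further down, at 16.4% (15.2% to 17.7%). Regions without SOX peaks thus ranked above unacetylated ones and below each class with a SOX factor, and the intervals of these classes do not overlap with theirs.

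The midpoint of the region also carried H3K4me1 less often without SOX peaks, at 31.8% against 47.5%, a difference of -15.8 points (-17.2 to -14.4), beside 36.9% of all H3K4me3 peaks. Its state followed the H3K4me3 score. Each region was divided into 10 equal parts along the chromosome. In the highest score class, H3K4me1 peaks covered 64.7% of the first part of regions without SOX peaks and 14.5% of the part just before the midpoint. In the lowest class they covered 54.7% and 56.3% of the same parts, so the mean cover was nearly even along the region. With SOX peaks the highest class had nearly the same shape, at 69.2% and 15.8%, while the lowest class stood at 79.7% and 78.6%. These are means over regions that differed. In the lowest class without SOX peaks, 36.5% had H3K4me1 on both flanks and at the centre, and 25.2% had none on flanks or inside.

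**Figure D2:**
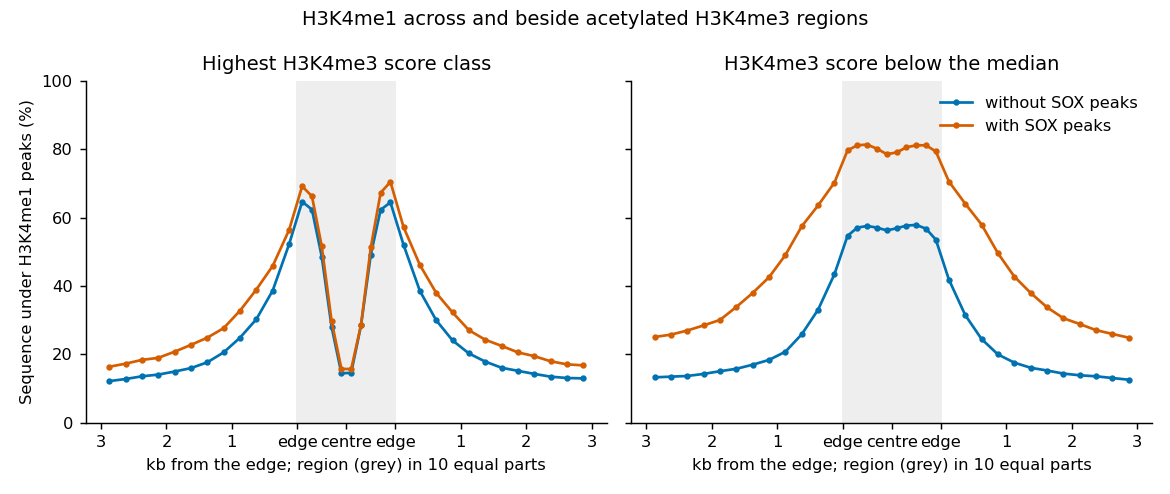
Mean percentage of sequence under H3K4me1 peaks (y axis) across acetylated H3K4me3 regions divided into 10 equal parts (grey) and in steps of 250 bp over the 3 kb on each side (x axis), for regions without and with SOX peaks. In the highest H3K4me3 score class (left) both lines dip to 14.5% and 15.8% beside the centre, and in the lowest class (right) the lines lie at 56.3% and 78.6% there, close to 54.7% and 79.7% in the first part.

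The gap between the classes was wide in low-scoring regions and narrow in high-scoring ones. In the lowest score class both flanks carried H3K4me1 at 41.6% of 4844 regions without and 77.8% of 3523 regions with SOX peaks, a difference of -36.2 points (-38.1 to -34.2). In the highest class it was 48.3% of 5825 against 58.4% of 3206, which gives -10.1 points (-12.2 to -7.91), and the intervals of these differences do not overlap. The centre carried H3K4me1 at 12.4% and 13.6% of the highest class, a difference of -1.15 points with an interval that includes 0 (-2.63 to 0.285). In the lowest class the centre shares were 56.3% and 78.8%.

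By width the same order held. At 500 to under 1000 bp both flanks were marked at 43.8% of regions without and 76.8% with SOX peaks, and at 1000 to under 1500 bp at 34.7% and 66.8%. At 3000 to under 4000 bp both flanks were marked at 65.9% and 72.7%, which gives -6.78 points (-11.2 to -2.31). After both classes were weighted to the same mix of width and score, the difference was -20.3 points (-21.7 to -18.9).

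The overlapping H3K27ac peak also differed in score, and its part in the result was not tested. Regions without SOX peaks had lower H3K27ac scores, with a peak of the highest score class at 26.5%, against 60% of regions with SOX peaks and 35.4% of all H3K4me3 peaks. Within that class both flanks carried H3K4me1 at 62.4% of regions without and 77.0% with SOX peaks (difference -14.6 points, -16.7 to -12.4). Where the H3K27ac peak scored below its median the shares were 25.9% and 39.8% (-13.9 points, -18.2 to -9.68). Between these, the shares were 42.7% and 57.0% (-14.3 points, -16.7 to -11.9).

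**Figure D3:**
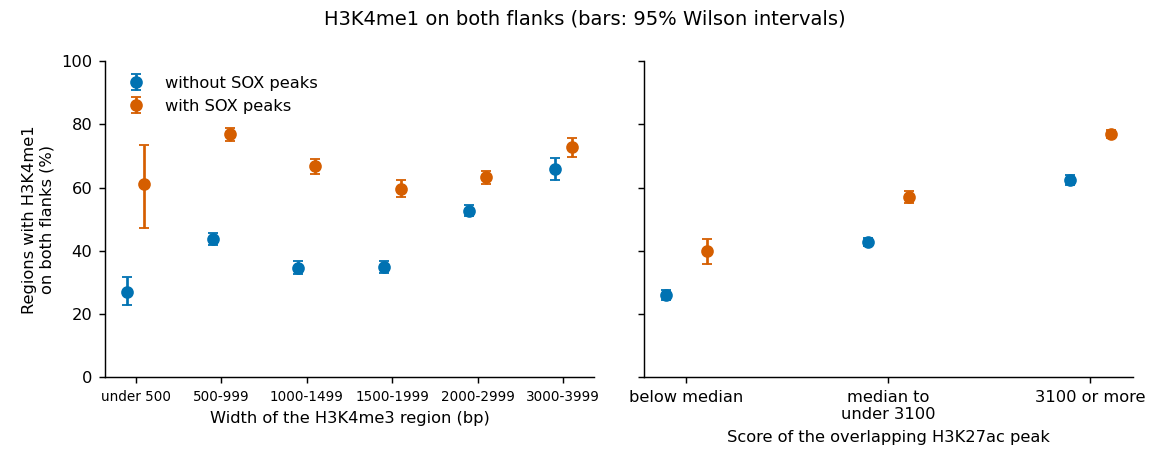
Percentage of acetylated H3K4me3 regions with H3K4me1 on both flanks (y axis), by width of the region (left) and by score of the overlapping H3K27ac peak (right), without and with SOX peaks; bars are 95% Wilson intervals. The point without SOX peaks is the lower in every class, with the largest gap under 2000 bp and the smallest, 65.9% against 72.7%, at 3000 to under 4000 bp.

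Described by H3K4me1 pattern, the regions without SOX peaks fell into 5 kinds. The most frequent carried it on 1 flank only (4297 regions, 36.6%, against 25.3% with SOX peaks and 31.2% of all H3K4me3 peaks), with a median width of 1711 bp. Next came 2848 regions (24.2%) with both flanks marked and the centre free; this is called the open-centred pattern here. It was found at 28.8% of regions with SOX peaks and 23.5% of all H3K4me3 peaks. Those without SOX peaks were the widest kind, at a median of 2347 bp, and 85.3% of them were in the highest H3K4me3 score class. In 2281 (19.4%) the mark was on both flanks and at the centre, against 38.8% with SOX peaks and 24.7% of all. By factor, this pattern was found at 24.3% of regions with SOX9 only, 27.5% with SOX6 only and 54.6% with both. Those without SOX peaks were narrow, at a median of 993 bp, 77.5% were in the lowest score class, and H3K27ac typically covered them fully (median 100%). No H3K4me1 was found on the flanks or inside at 1986 regions (16.9%), against 5.14% with SOX peaks and 17.7% of all, and at 338 (2.88%) it lay inside only.

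These kinds differed in how often they were without SOX, around the 61.9% of all acetylated regions. The pattern with H3K4me1 on both flanks and at the centre was the only 1 of the 5 in which regions with SOX peaks were the more numerous, with 44.8% of its acetylated regions without a SOX peak. That share was 57.7% for the open-centred pattern, 70.1% for a single flank and 84.2% where H3K4me1 was on neither the flanks nor the inside. Of these last, the regions without SOX peaks had narrow H3K27ac peaks, with a median of 962 bp against 2142 bp for the open-centred pattern, and 12.3% of them lay on X.

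H3K27ac itself, which the rule read, spread less around regions without SOX peaks. It covered a median of 89.8% of the region (quartiles 76.7% and 99.9%) without and 100% (88.5% and 100%) with SOX peaks. It passed both edges at 24.5% of regions without SOX peaks, against 53.2% of regions with SOX peaks and 30.4% of all H3K4me3 peaks. The widest overlapping H3K27ac peak measured a median of 1577 bp without and 2388 bp with SOX peaks. In the first 250 bp outside the edges H3K27ac covered 25.9% and 52.1% of the sequence. In nearly all cases of both classes, 97.1% without and 97.7% with SOX peaks, a single H3K27ac peak was involved.

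That acetylated peak rarely reached a SOX site. Only 432 regions without SOX peaks (3.68%) shared an H3K27ac peak that held a SOX peak beyond the H3K4me3 edge, typically 490 bp away (the median; quartiles 208 and 1212 bp). The remainder were acetylated stretches on which neither factor was called. An H3K27ac peak that held a SOX peak anywhere overlapped 99.3% of regions with SOX peaks and 35.5% of all H3K4me3 peaks. The rule barred SOX peaks from the H3K4me3 region, so the low share follows in large part from the selection and is a description.

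The nearest SOX peak lay within 50 kb of 68.5% of regions without SOX peaks. Their median distance to it, edge to edge, was 25388 bp (quartiles 8815 and 63685 bp). For regions with SOX peaks, measured to the nearest SOX peak beyond those they held, it was 15549 bp (4262 and 41262 bp), and for narrow regions without H3K27ac it was 51617 bp. A SOX peak lay within 1 kb of 4.85% of regions without SOX peaks, within 10 kb of 27.5% and within 100 kb of 84.7%. For regions with SOX peaks the shares were 10.6%, 40.2% and 91.4%. The rule read the same SOX lists, so these distances are a description.

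**Figure D4:**
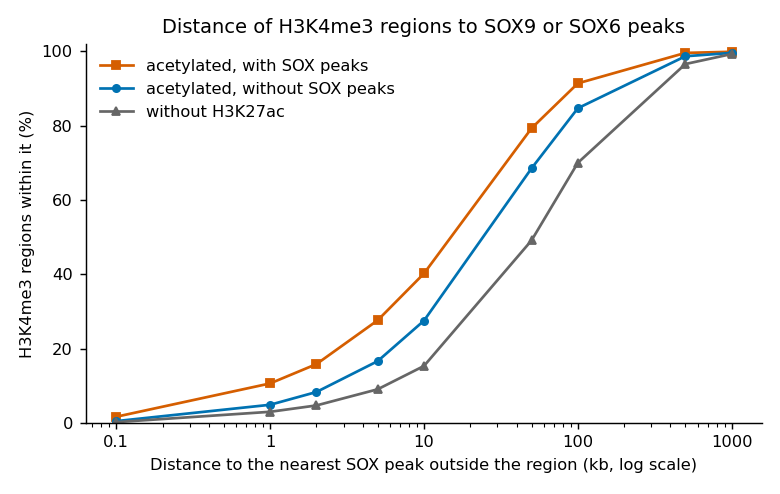
Percentage of H3K4me3 regions narrower than 4000 bp (y axis) that have a SOX9 or SOX6 peak outside them within a given distance (x axis, kb, log scale). The line for acetylated regions without SOX peaks runs between those with SOX peaks and those without H3K27ac, at 27.5%, 40.2% and 15.3% within 10 kb.

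H3K4me1 on both flanks became rarer with distance from SOX peaks. The share was 62.7% for the 569 regions less than 1 kb from a SOX peak, 53.8% at 5 to under 10 kb, 44.7% at 10 to under 50 kb and 25% (1798 regions) at 100 kb or more. Regions with SOX peaks showed the same course towards their next SOX peak, from 80.9% to 48.2%, and were above at each distance, with differences of -17.4 to -23.2 points. Of regions 100 kb or more away, 9.90% lay on X, against 1.76% of those under 1 kb. On the autosomes alone the shares went from 63.1% to 27.3%. The autosomes also differed in input read density, given here relative to the median chromosome. Chromosome 7, at 1.91, had 19.2 SOX peaks per Mb and both flanks marked at 57.8% of regions without SOX peaks. Chromosome 20, at 0.712, had 8.12 per Mb and 29.1%. Chromosome 12, at 0.994, had many SOX peaks, 16.8 per Mb, but only 36.6%. The part of input in the course with distance was not tested.

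The SOX peak nearest to each region without SOX was set beside the SOX9 and SOX6 lists as a whole. It overlapped a peak of the other factor in 37.4% of cases at under 1 kb and 25.6% at 100 kb or more, against 49.4% of all 34137 SOX9 and SOX6 peaks. Its overlap with H3K27ac was on both sides of the 77.6% of all SOX peaks, at 85.4% under 1 kb and 63.6% at 100 kb or more. For H3K4me3 these shares were 48.7% and 34.2%, around the 39.5% of all SOX peaks. It was a SOX6 peak in 50.3% and 57.4% of cases, against 56.7% of all. Its score stood at a median percentile of 43.3 and 40.5 of its own list. The rule read the SOX lists, and a peak near several regions counts more than once, so these shares are a description. A site called in both lists enters the values of all SOX peaks with a peak from each list, but only 1 peak is nearest. The 49.4% is thus higher than a count by site would give, and the shares near regions cannot be ranked against it.

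H3K9me3 was more frequent at regions without than with SOX peaks, and the difference was largest among narrow, low-scoring ones. It overlapped 495 regions without SOX peaks, or 4.21%, and 2.60% of those with SOX peaks, a difference of 1.62 points (1.09 to 2.13). The share of all H3K4me3 peaks, 3.78%, was closer to that without SOX peaks. Regions with SOX9 only were close to those without SOX peaks, at 3.89% (3.06% to 4.95%, against 3.86% to 4.59%), and narrow regions without H3K27ac had 4.32%. With only the SOX9 list read, the difference was 0.963 points (0.369 to 1.51). Under 500 bp the share was 19.9% (16.2% to 24.2%) of 377 regions without and 4.08% (1.13% to 13.7%) of 49 regions with SOX peaks. At 500 to under 1000 bp it was 6.57% and 2.72%, and at 1500 to under 2000 bp 2.46% and 2.26%. From 1000 bp upwards the interval of the difference included 0 in every width class. In the lowest H3K4me3 score class the share was 6.50% without and 2.33% with SOX peaks. In the highest it was 2.20% and 2.84%, and among H3K4me3 peaks above their median score the order turned, at 2.61% and 2.85% (difference -0.248 points, -0.930 to 0.386). Where the overlapping H3K27ac peak was in its highest score class, the shares were 2.92% without and 2.93% with SOX peaks. Between they were 3.71% and 2.34%, and below the H3K27ac median 6.50% and 1.20%.

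Within the lowest score class H3K9me3 lay differently in regions without and with SOX peaks. In the lowest score class without SOX peaks it covered 5.57% of the central sequence and 2.92% of the first 250 bp outside the edges, so it was highest within. With SOX peaks it covered 1.05% at the centre and 1.33% of the first 250 bp outside, a small difference. At 2 kb from the edges it covered 4.98% of the sequence with SOX peaks and 2.60% without. In the highest score class both had a low centre, at 0.713% without and 0.832% with SOX peaks, below 0.860% and 1.18% in the first 250 bp outside. Where a region without SOX peaks met H3K9me3, the peaks shared a median of 578 bp and a median of 81.0% of the region. The H3K9me3 peak involved stood at a median percentile of 79.5 in the scores of its list. Of these 495 regions 35.2% had H3K4me1 on neither flank, against 19.1% of the others without SOX peaks.

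Chromosomes differed in the share of acetylated regions without SOX, which was 61.9% over all. It ran from 49.1% (46.3% to 51.8%) on chromosome 4 to 73.8% (69.8% to 77.5%) on chromosome 20 and 81.3% (77.5% to 84.5%) on X. It moved with the input libraries. The density of perfectly matching input reads, divided by that of the median chromosome, was 0.595 on X, 0.712 on chromosome 20 and 1.21 on chromosome 4. The 4 chromosomes with the most input, 16, 9, 7 and 11, had 54.9%, 50.8%, 53.4% and 53.3% of regions without SOX. Over the 21 chromosomes Pearson's r was -0.76 and Spearman's rho -0.78, and r was -0.75 without chromosomes 9 and 16, the farthest from the median input. These values describe chromosomes of the same libraries, and the part of input depth in the share was not tested. The number of regions without SOX peaks per Mb had a Pearson's r of 0.01 with the input. Without those 4 chromosomes the share of regions with H3K4me1 on both flanks was 41.1% without and 64.3% with SOX peaks.

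**Figure D5:**
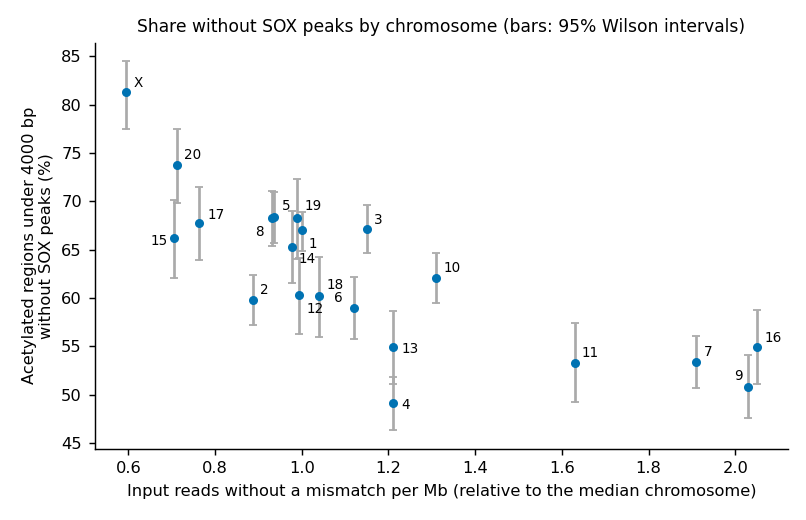
Percentage of acetylated H3K4me3 regions under 4000 bp that held no SOX peak (y axis, with 95% Wilson intervals) against the density of perfectly matching input reads, divided by that of the median chromosome and averaged over 4 input libraries (x axis), for 21 chromosomes. X is at the upper left, at 0.595 and 81.3%, and the 4 chromosomes with the most input lie between 50.8% and 54.9%.

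Regions on X stood apart in their marks, with and without SOX peaks. Of 382 without SOX peaks there, 11% (8.24% to 14.5%) had H3K4me1 on both flanks, against 44.7% of the 11368 on the autosomes, and 66.0% had it on neither, against 18.2%. With SOX peaks both flanks carried it at 22.7% (15.2% to 32.5%) of 88 regions on X and 68.1% of those on the autosomes. H3K9me3 met 13.9% (10.8% to 17.7%) on X and 3.89% on the autosomes without SOX peaks, although H3K9me3 peaks of the whole list were sparser on X, at 4.43 against 18.8 per Mb. With SOX peaks it met 7.95% (3.91% to 15.5%) and 2.53%. Without SOX peaks the highest H3K4me3 score class held 25.7% on X and 50.4% on the autosomes, while the median widths, 1633 and 1650 bp, were close. SOX9 peaks numbered 1.08 and 5.32 per Mb and SOX6 peaks 1.49 and 6.96 per Mb on X and the autosomes. H3K4me1 peaks of the whole list numbered 5.61 per Mb on X and 33.3 per Mb on the autosomes, and H3K4me3 peaks 3.92 and 8.19 per Mb. The part of the low input on X in these values was not tested.

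Regions without SOX peaks fell into 2183 windows of 1 Mb with a median of 4 each, beside a median of 8 H3K4me3 peaks of all kinds. The fullest window, on chromosome 7 from 12000001 to 13000000 (rn5), held 42, of which 38 had H3K4me1 on both flanks and 0 on neither, beside 20 regions with SOX peaks, 75 H3K4me3 peaks in all, 31 SOX9 peaks and 45 SOX6 peaks. The window on chromosome 1 from 102000001 to 103000000 held 41, with both flanks marked at 19 and neither at 10. Windows with 38 each lay on chr1:81000001-82000000, chr16:20000001-21000000 and chr20:5000001-6000000. Among the 38 on chromosome 16 there were 0 with H3K4me1 on neither flank, and among those on chromosome 20 there were 13. Over the whole of chromosomes 7, 16 and 20, both flanks were marked at 57.8%, 54.2% and 29.1% of regions without SOX peaks. The relative input of these chromosomes was 1.91, 2.05 and 0.712, and its part in the windows was not tested. In the order given, the last 4 windows held 11, 12, 11 and 12 regions with SOX peaks and 63, 59, 56 and 60 H3K4me3 peaks in all, so the fullest windows also held many other H3K4me3 peaks. In these 5 windows the median distance to a SOX peak was 8573 to 16040 bp.

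The widest regions of the highest score class all had the open-centred pattern. In order of width they were chr1:287873427-287877419 (rn5), chr2:230339647-230343636, chr2:191794915-191798901, chr6:20898729-20902710 and chr2:253613580-253617556. In each of these 5, H3K4me1 was on both flanks and absent from the centre, and H3K27ac covered 80.2% to 100% of the region. The distance to a SOX peak was lowest for the first, at 2698 bp, and highest for the last, at 109076 bp. These were also the 5 regions just under the width limit, at 3977 to 3993 bp. Those otherwise alike just over it measured 4000 to 4030 bp, on chromosomes 9, 3, 3, 5 and 6, and 2 of them had H3K4me1 at the centre. Of these, only the region on chromosome 9 was open-centred, and the others lacked H3K4me1 on a flank, carried it at the centre, or both. The open-centred pattern was usual at such widths. At 3000 to under 4000 bp it was found at 61.4% of regions without and 61.8% with SOX peaks. Among all H3K4me3 peaks of 4000 bp or wider it was found at 59.0%.

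Other high-scoring wide regions had no H3K4me1 within 5 kb of either edge. The widest of these was chr11:85556063-85559807, with H3K27ac over 54.4% of its 3745 bp and with H3K9me3. The others were chr17:62318197-62321825, chr15:86013539-86017142, chr6:105366511-105370102 and chr17:86536436-86539994, without H3K9me3. The distances of the 5 to a SOX peak ran from 63987 to 434082 bp. All 5 were thus farther from SOX than the median region of 25388 bp.

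The regions farthest from any SOX peak lay on chromosome 8 and X. The former were chr8:17444185-17445204 and chr8:17494026-17496747, at 3072458 and 3020915 bp from the nearest SOX peak. The latter were chrX:48983432-48985610, chrX:48957875-48958847 and chrX:92035817-92037390, at 2816414 to 2954380 bp. Of the 5, 4 had no H3K4me1 on flanks or inside, and the second on chromosome 8, with a width of 2722 bp and a score of 3100, had it on 1 flank. The nearest regions to a SOX peak were 4 to 12 bp from it. They were chr9:59674743-59675316, chr4:243479557-243480448, chr1:57679651-57680579, chr17:1659684-1663295 and chr20:5515509-5517010. The first 3 of these were 574 to 929 bp wide, had low scores and carried H3K4me1 and H3K27ac throughout.

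Few regions stood close to the limits of the rule in bp of width, overlap or distance. The score of the SOX peaks kept made a larger difference. With only SOX peaks above their median score, 14635 regions were without SOX peaks and 4352 with them, beside 11750 and 7237 by the rule. A SOX peak lay under 100 bp away from 52 regions without SOX peaks, and 61 regions with SOX peaks shared under 100 bp with the SOX peak that overlapped them most. Under 100 bp of H3K27ac was shared by 9 regions without SOX peaks, with a lowest value of 22 bp, and 25 more would have entered with H3K27ac up to 100 bp away. Within 100 bp below the width limit there were 20 regions, and in the 100 bp from the limit upwards 27 that were otherwise alike. A further H3K4me3 peak lay within 1 kb of 11.9% of regions without and 13% of regions with SOX peaks.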

How the data were processed

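For each of the 6 antibodies the authors deposited 1 list of peaks per library, with a score for each peak. The peak names in these lists contain MACS. The score has no stated scale and was used within lists only. CASAVA 1.8 and build rn5 are named, per the submitters' processing notes. The caller's version and settings and the input it was run against were not given in the sources used here. Inputs were deposited as raw read counts per chromosome, per the file headers, with 36873004 to 131858579 reads, of which 53.4% to 53.5% aligned. Read depth of the immunoprecipitations was not used here.

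Intervals were read as counted from 0 and are printed counting from 1. Overlap meant 1 bp or more. Distances run edge to edge to the nearest SOX peak that does not overlap the region. The last peak end stood in for chromosome length. Shares carry Wilson 95% intervals and differences Newcombe 95% intervals, always without minus with SOX peaks; matched differences were weighted over 6 width and 3 score classes. Alternatives are described in the closing section. No test was run, since each antibody has 1 library. Interval code was tested on simulated lists (Python 3.11.15, numpy 2.4.6, pandas 2.3.3). Regions named were, with ties by position, the 5 widest of the highest score class, nearest to and farthest from a SOX peak, nearest to the width limit on each side and widest without H3K4me1 within 5 kb, and the 5 fullest 1 Mb windows. The members, lists and comparisons were chosen with earlier results of these data known.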

Additional observations from a re-analysis of the deposited data

How the results depend on the processing

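No paired analysis was possible because each antibody has 1 library. Differences are without minus with SOX peaks, and for values that moved the cause was not tested. The number of regions without SOX peaks, 11750, stayed within 1.5 times in 11 of 13 alternatives and was 6906 with H3K4me3 peaks above their median score and 7655 under 2000 bp, both of which admit fewer peaks. The difference in H3K4me1 on both flanks kept its direction in all 18 alternatives run. It was -28.1 points with SOX peaks above their median score, -20.3 with H3K27ac peaks above theirs, -12.9 with H3K4me3 peaks above theirs and -31.0 under 2000 bp. It was -19.4 with at least 0.5 of the flank covered, -20.3 matched on width and score and -26.4 with the SOX9 list alone. The H3K9me3 difference turned to -0.248 points with H3K4me3 peaks above their median score. It was 0.707 with H3K27ac peaks above theirs, 0.998 with H3K9me3 peaks above theirs, 2.52 under 2000 bp and 0.963 with the SOX9 list alone.

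The difference in the highest score class turned to -1.98 points with H3K4me3 peaks above their median score. It was 3.49 with a SOX overlap of 0.5 of the narrower interval, 16.8 with SOX peaks above their median score, 6.94 with SOX within 1000 bp held, 15.9 with H3K27ac peaks above their median, 9.51 under 2000 bp, and 11.4 and 11.2 with SOX9 or SOX6 alone. The difference in median width, -13 bp, has no stable direction. In the same order of settings it was -56.0, 226, 47.5, 156, 40.0, 122 and 97.0 bp. It was also -284 bp with H3K4me3 peaks above their median score, 2 bp with no other H3K4me3 peak within 1000 bp and 6 bp without chromosomes 7, 9, 11 and 16. The difference in median distance to SOX kept its direction in all 13 alternatives. It was 24231 bp with SOX peaks above their median score, 14794 with SOX within 1000 bp held, 8090 with H3K4me3 peaks above their median score, 11079 under 2000 bp, and 16850 and 14206 with SOX9 or SOX6 alone. The 4 chromosomes, X and the single SOX lists were left out or used alone as alternatives chosen after seeing the data, as was matching for H3K9me3.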

Other observations

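Where H3K4me1 lay on 1 flank only, its side was compared with that of H3K27ac and of the nearest SOX peak. Of the 4297 such regions without SOX peaks, 50.7% (95% Wilson interval 49.2% to 52.2%) carried it on the side of lower coordinates. H3K27ac passed exactly 1 edge at 1635 of them, and this was the edge with H3K4me1 in 50.3% (47.9% to 52.7%). The nearest SOX peak lay on the H3K4me1 side in 52.3% (50.8% to 53.8%) of all and in 49.1% (46.5% to 51.7%) of those 50 kb or more from it. At 1 to under 5 kb it did so in 60.3% (55.8% to 64.7%) of 464 regions, and at under 1 kb in 52.1% (44.5% to 59.6%) of 165. The direction of transcription at these regions was not analysed here, and no test was run, since each antibody has 1 library.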
